A study of Mus musculus with 12 samples.

Results

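The 40 genes described here are markers of the mammalian cell cycle: the cyclins, kinases and spindle proteins of mitosis, and the factors that start and carry out DNA replication. They were taken from a fixed list of names and not by their measured levels, and all 40 were found among the 29737 genes of the count table. RNA-seq was performed on mouse bone marrow neutrophils of WT genotype, labelled as Ly6G+ cells isolated with magnetic beads and kept in RPMI 1640 with 10% fetal bovine serum. The cells were stimulated for 24 h with PBS as the control, TCA at 200 µM, GCA at 200 µM or Tβ-MCA at 10 µM, with 3 samples in each of the 4 groups. The deposited values taken as GCA are headed GA. They were assigned to GCA because it is the only bile acid of the labels beside TCA and Tβ-MCA. TCA and GCA are the taurine and the glycine conjugate of cholic acid, and Tβ-MCA is the taurine conjugate of β-muricholic acid, a bile acid abundant in mice. The methods of the study name young female C57BL/6 mice for its animal work and a separating medium with an enrichment kit for neutrophils, without saying how many mice gave these samples. The labels give this dose of Tβ-MCA, whereas the methods of the study name the same dose for all bile acids, so Tβ-MCA was set beside the other bile acids but not tested against them. The PBS samples are numbered 3, 5 and 6 and those of each bile acid 3, 4 and 5, and nothing says whether a number marks a mouse or a preparation, so p-values measure only the spread between these samples, which may be technical. Values for a group are given in the order of these numbers, which carry no other order.

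Dividing cells pass from G1 through S phase, in which DNA is copied, and G2 into mitosis. At the G1/S boundary, cyclin E with its kinase and the E2F factors switch on the genes for DNA replication, and in late G2 another wave of genes, from cyclin B to the spindle kinases, is transcribed for mitosis. In bone marrow, neutrophil precursors up to the myelocyte stage divide, and the later stages, which make up most of the neutrophils, have left the cycle. The list holds 21 mitotic genes and 19 genes of the G1/S boundary and of replication.

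Each sample had 32757389 to 41375925 counts. All 40 genes passed the filter on low counts, with 16761 genes tested in all, and the lowest count of any of the 40 in any sample was 220, for Ccne1. Levels are given in CPM, the counts scaled to a common library size, after TMM scaling, and levels per length as RPKM. Across the samples, mature neutrophil markers summed to 27404 to 38423 CPM over 10 genes and granulocyte precursor markers to 17759 to 30958 CPM over 12 genes, and S100a9, which encodes a subunit of calprotectin, had the highest RPKM of all genes tested, so that defining markers of the labelled cells were present. Ly6g itself, the surface antigen of the label, was measured at 7.54 to 21.4 CPM. Monocyte and macrophage markers summed to 407 to 1310 CPM, eosinophil, basophil and mast cell markers to 75.7 to 289 CPM, stem and progenitor markers to 84.5 to 161 CPM, B cell markers to 8.59 to 19.1 CPM, T and NK cell markers to 1.73 to 3.97 CPM and erythroid markers to 1.52 to 3.71 CPM. On the first principal component (30.6% of the variance), Tβ-MCA replicates 3 and 4 stood at 56.1 and 45.8 and Tβ-MCA replicate 5 at 3.75, GCA replicate 4 stood at 10.1 against -11.9 and -13.6 for the other GCA samples, and the second (17.2%) separated the samples numbered 3 from the others of their groups.

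To show what the mitotic and the replication genes have in common in sequence, promoter windows of the RefSeq annotation (GRCm38.p6), from 250 bases before to 50 after a transcription start, were searched on both strands for 3 kinds of words. The cell cycle homology region (CHR, TTTGAA) and the box bound by NF-Y (CCAAT) are textbook elements of genes transcribed in G2 and mitosis, and the E2F words (TTTCCCGC, TTTGGCGC, TTTCCCGG, TTTGCCGC or TTTCGCGC) are elements of genes transcribed at G1/S. Windows were held for 33 of the 40 genes. The 3 mitotic and 3 replication genes below are shown because their windows hold these words, which are in capitals. The capitals mark all 3 kinds, and E2F matches of opposite strands can overlap, as in the unbroken capitals of Mcm5 and Mcm6.
Mki67, chr7:135716330-135716629, minus strand: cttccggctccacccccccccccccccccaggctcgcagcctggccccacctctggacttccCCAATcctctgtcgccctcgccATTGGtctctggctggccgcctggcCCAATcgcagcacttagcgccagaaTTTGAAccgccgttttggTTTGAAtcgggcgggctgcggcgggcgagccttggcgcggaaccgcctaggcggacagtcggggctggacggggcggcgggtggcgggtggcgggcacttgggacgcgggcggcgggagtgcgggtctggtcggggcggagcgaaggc
Top2a, chr11:99024140-99024439, minus strand: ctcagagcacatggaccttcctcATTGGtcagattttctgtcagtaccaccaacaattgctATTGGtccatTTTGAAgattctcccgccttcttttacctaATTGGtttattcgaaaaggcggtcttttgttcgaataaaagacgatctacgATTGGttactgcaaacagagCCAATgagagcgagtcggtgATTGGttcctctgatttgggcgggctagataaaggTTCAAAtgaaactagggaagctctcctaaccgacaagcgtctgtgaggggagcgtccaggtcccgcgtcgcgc
Cdk1, chr10:69352863-69353162, minus strand: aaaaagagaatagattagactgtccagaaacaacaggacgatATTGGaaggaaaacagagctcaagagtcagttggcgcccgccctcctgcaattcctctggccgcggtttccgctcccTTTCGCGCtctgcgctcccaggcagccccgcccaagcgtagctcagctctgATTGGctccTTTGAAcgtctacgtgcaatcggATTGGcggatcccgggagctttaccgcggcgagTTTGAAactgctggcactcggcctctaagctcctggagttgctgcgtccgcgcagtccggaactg
Mcm3, chr1:20820263-20820562, minus strand: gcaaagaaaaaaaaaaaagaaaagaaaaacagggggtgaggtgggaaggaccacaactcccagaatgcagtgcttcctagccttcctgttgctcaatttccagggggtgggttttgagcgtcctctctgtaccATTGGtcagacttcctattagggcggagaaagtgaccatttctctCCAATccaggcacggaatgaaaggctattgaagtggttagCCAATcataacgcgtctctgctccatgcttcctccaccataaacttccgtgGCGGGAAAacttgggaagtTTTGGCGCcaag
Mcm5, chr8:75109259-75109558, plus strand: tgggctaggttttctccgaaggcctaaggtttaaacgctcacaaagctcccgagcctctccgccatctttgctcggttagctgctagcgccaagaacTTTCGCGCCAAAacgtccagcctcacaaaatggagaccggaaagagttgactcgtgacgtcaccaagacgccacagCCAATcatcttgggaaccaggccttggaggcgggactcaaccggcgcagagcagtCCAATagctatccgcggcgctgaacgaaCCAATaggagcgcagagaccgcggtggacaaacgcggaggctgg
Mcm6, chr1:128359656-128359955, minus strand: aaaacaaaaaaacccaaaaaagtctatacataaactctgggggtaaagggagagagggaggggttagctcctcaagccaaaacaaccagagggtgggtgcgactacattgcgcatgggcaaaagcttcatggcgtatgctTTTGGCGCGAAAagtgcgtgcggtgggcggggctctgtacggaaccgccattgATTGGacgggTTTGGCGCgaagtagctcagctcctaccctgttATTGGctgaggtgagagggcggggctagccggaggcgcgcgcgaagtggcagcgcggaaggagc

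The windows of Mki67, Top2a and Cdk1 each held 2 CHR words and at least 3 CCAAT words, and that of Cdk1 also 1 E2F match. The windows of Mcm3, Mcm5 and Mcm6 held no CHR word but at least 2 E2F matches each, and 3, 3 and 2 CCAAT words. Over all windows, a CHR word was found in 12 of 17 mitotic genes and 2 of 16 G1/S and replication genes, against 20.2% of all 27025 genes with a window and 17.9% of the 32851 windows. CCAAT was found in 15 of 17 mitotic and 8 of 16 G1/S and replication genes, against 41.1% of genes and 37.4% of windows. E2F words ran the other way, with 2 of 17 mitotic and 7 of 16 G1/S and replication genes, against 3.99% of genes and 3.48% of windows. These are matches of letters and were not tested as a set. The windows of Ccne1 and E2f1 held none of the words. Some RefSeq starts lie well inside the gene as the files place it, by 466 bases for E2f1 and, among the 7 genes of G1/S and replication with an E2F match, by 1543 bases for the window of Lig1 that holds its match, 539 for that of Mcm7 and 350 for Cdc6.

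**Figure D1:**
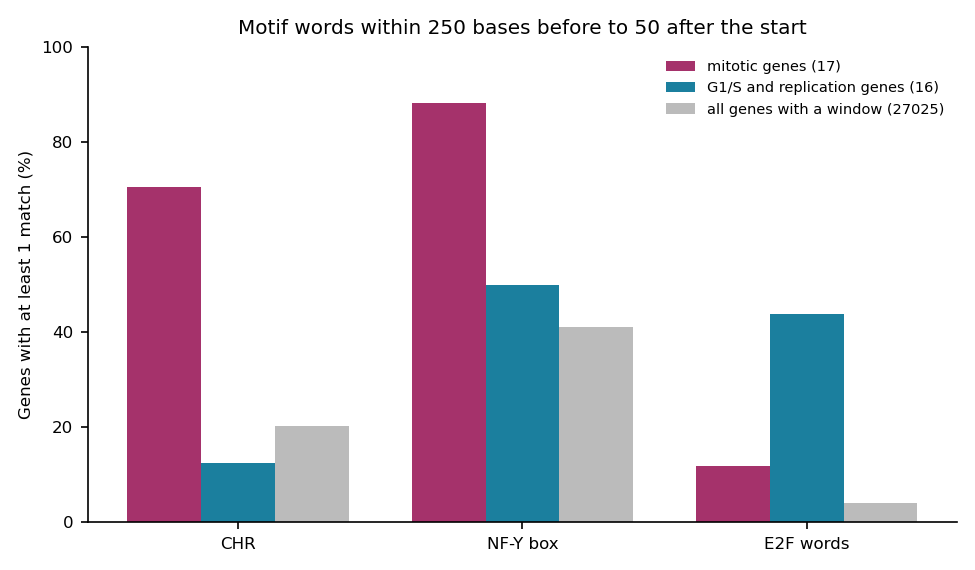
Share of genes (vertical axis, %) with at least 1 match to the CHR word, the NF-Y box or the E2F words in the promoter window, for 17 mitotic genes, 16 G1/S and replication genes and all 27025 genes with a window. CHR and NF-Y words were found in 12 and 15 of the 17 mitotic genes, and E2F words in 7 of the 16 G1/S and replication genes.

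The cell cycle genes were well measured in every group, and 2 of the 40 were called in 1 of the 4 comparisons. Together the 40 genes took 0.451 to 0.547% of all counts, and their summed level was 4922 ± 493 CPM with PBS, 4921 ± 246 with TCA, 4978 ± 521 with GCA and 4980 ± 228 with Tβ-MCA (SD, n = 3). Per length, the median of the 40 genes was 14.4 RPKM, against 3.23 RPKM over all genes tested. Mki67, which encodes the coat protein of mitotic chromosomes used as the Ki-67 proliferation marker, was the highest at 190 RPKM, followed by Top2a, the topoisomerase that untangles sister chromatids, at 64.8 RPKM. Next came the spindle checkpoint kinase gene Bub1b at 39.1 RPKM, the spindle assembly factor gene Tpx2 at 38 RPKM and the DNA ligase gene Lig1 at 37.7 RPKM. At the other end were Cdc6, which loads the replicative helicase, at 1.7 RPKM, Tyms, thymidylate synthase, at 1.75 RPKM, and Ccne1 at 2.94 RPKM. In these bulk samples, fewer dividing cells and less of the RNA per cell cannot be told apart.

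**Figure D2:**
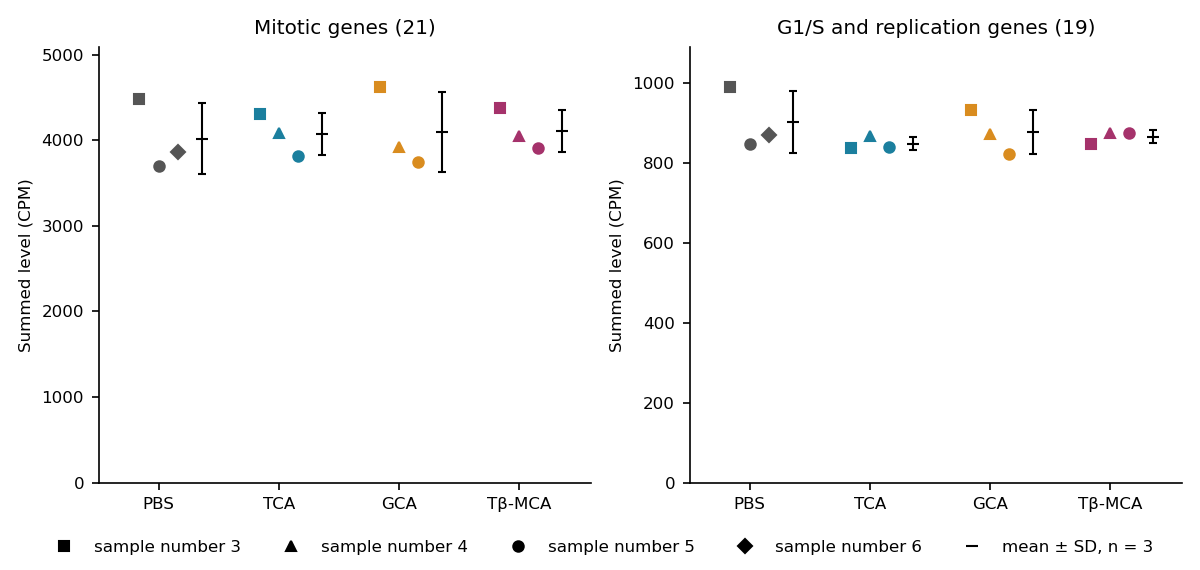
Summed level in CPM (vertical axis, from 0) of the 21 mitotic genes (left) and the 19 G1/S and replication genes (right) in each sample, by treatment, with marker shapes for sample numbers and bars for mean ± SD (n = 3). The groups overlap in both panels, and the sample numbered 3 has the highest mitotic sum in each group.

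Effects of Tβ-MCA on the cell cycle genes were compared with PBS first, since this contrast held the most called genes. Of the 40 genes, 1 rose and 1 fell at an adjusted p under 0.05 (edgeR quasi-likelihood test with Benjamini-Hochberg adjustment over all genes tested), which is 5% against 7.62% of all genes. The study names a p of 0.05 and a 2-fold change as cutoffs for edgeR, without saying whether p was adjusted. Elsewhere it names DESeq2 with Benjamini-Hochberg adjustment. With the cutoffs taken as an unadjusted p under 0.05 and at least a 2-fold change, none of the 40 passed, against 2.95% of all genes. The called pair are both regulators of the G1/S step. E2f1, a transcription factor that drives entry into S phase, rose, and Ccne2, which encodes cyclin E2, the partner of CDK2 at the G1/S boundary, fell.

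E2f1 (chromosome 2, 154559407-154569892, minus strand, GRCm38) stood at 18.8, 16.6 and 14 CPM with PBS, 16.5, 15.9 and 15.4 with TCA, 17.2, 18.6 and 16.3 with GCA and 22.9, 21.2 and 19.6 with Tβ-MCA. All samples with Tβ-MCA lay above all with PBS, and Tβ-MCA replicate 5 lay nearest to them. The log2 fold change was 0.37 (SE 0.11), a 1.29-fold higher level, with an adjusted p of 0.0475 by edgeR. Ccne2 (chromosome 4, 11191351-11204779, plus strand) stood at 37.6, 33.4 and 35.1 CPM with PBS, 33.1, 34.7 and 32.6 with TCA, 36.5, 31.4 and 28.3 with GCA and 25, 30 and 29.3 with Tβ-MCA. Here all samples with Tβ-MCA lay below all with PBS, at a log2 fold change of -0.33 (SE 0.10) and an edgeR adjusted p of 0.0491. The annotation places Ints8 across Ccne2 on the other strand, and whether the counting used strand is not given in the sources used here.

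The paralogue Ccne1, which encodes cyclin E1, stood at 10.9, 8.06 and 8.28 CPM with PBS, 6.82, 8.36 and 7.53 with TCA, 8.2, 6.42 and 8.22 with GCA and 7.15, 6.62 and 7.49 with Tβ-MCA. It did not overlap between Tβ-MCA and PBS either, being lower in each sample, with a log2 fold change of -0.36 (SE 0.14) and an adjusted p of 0.132 by edgeR, and without PBS replicate 3 the log2 fold change of Ccne1 was -0.21. Groups that do not overlap were found for these 3 of the 40 genes, 7.5% against 27% of all genes tested. Both calls lay near the threshold. With each of 5 of the 6 samples left out in turn, none of the 40 genes was called, in 4 of these 5 fits no gene of the whole table was called either, and without Tβ-MCA replicate 5 both E2f1 (0.42, adjusted p = 0.0182) and Ccne2 (-0.36, adjusted p = 0.031) remained. Left out together, the 4 samples numbered 3 also ended both calls, with 0 of the 40 called. E2f1 was then at 0.42 (edgeR adjusted p = 0.152) and Ccne2 at -0.21 (edgeR adjusted p = 0.245). With total library sizes only E2f1 was called, and with upper-quartile scaling only Ccne2.

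None of the 21 mitotic genes was called. Bub1, a kinase of the spindle checkpoint, had the lowest p among them and stood at 15.4, 14 and 12.6 CPM with PBS, 15.6, 14.5 and 16.6 with TCA, 15.1, 14.8 and 11.7 with GCA and 19.1, 17.1 and 15 with Tβ-MCA. The groups overlapped, with Tβ-MCA replicate 5 inside the PBS range, and the log2 fold change of 0.28 (SE 0.12) had an adjusted p of 0.151 by edgeR. The member of the GINS helicase complex Gins2 stood at 21.9, 27.1 and 22.3 CPM with PBS, 25.2, 27.8 and 25.4 with TCA, 25.1, 25.2 and 25.1 with GCA and 28, 26.7 and 25.3 with Tβ-MCA. Its log2 difference was 0.17, with an edgeR adjusted p of 0.265, and Gins2 overlaps Gse1 on the other strand.

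Over the 40 genes, the median log2 fold change with Tβ-MCA was -0.017, against 0.0041 over all genes, and the median size of the change, without its sign, was 0.091, against 0.185. The median SE was also smaller, 0.095 against 0.146. With TCA and GCA, where no gene was called, the median sizes were 0.048 against 0.094 and 0.053 against 0.097. With Tβ-MCA, the 21 mitotic genes had a median of 0.03, with 14 above 0, and the 19 G1/S and replication genes a median of -0.09, with 5 above 0. At an unadjusted p under 0.05 lay 4 of the 40 genes (10%), against 24.9% of all genes. The 95% intervals of all 40 genes lay within a 2-fold change in either direction, reaching at the widest a log2 of -0.66 for Ccne1 and 0.59 for E2f1. Markers of other cells and stages also differed in the same contrast, and no gene of the 3 lists given here was at 0 in any sample. All 12 monocyte and macrophage markers were lower by fitted value, 1 of them at an adjusted p under 0.05, and their sum was 1216, 1283 and 1296 CPM with PBS and 407, 531 and 1031 CPM with Tβ-MCA. All 12 granulocyte precursor markers were also lower by fitted value, 2 of them called, with sums of 30958, 24064 and 23442 CPM against 20876, 17759 and 20488 CPM. The mature neutrophil markers had 3 of 10 called lower and 1 above 0 by fitted value, with sums of 38423, 34253 and 32920 CPM against 28332, 27404 and 31076 CPM. Ly6g was 1 of the 3, at 21.4, 18 and 17.8 CPM with PBS and 7.54, 8.32 and 12.9 with Tβ-MCA (log2 -0.99, SE 0.18, edgeR adjusted p = 0.0208). The part of these markers in the differences of E2f1 and Ccne2 was not tested.

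**Figure D3:**
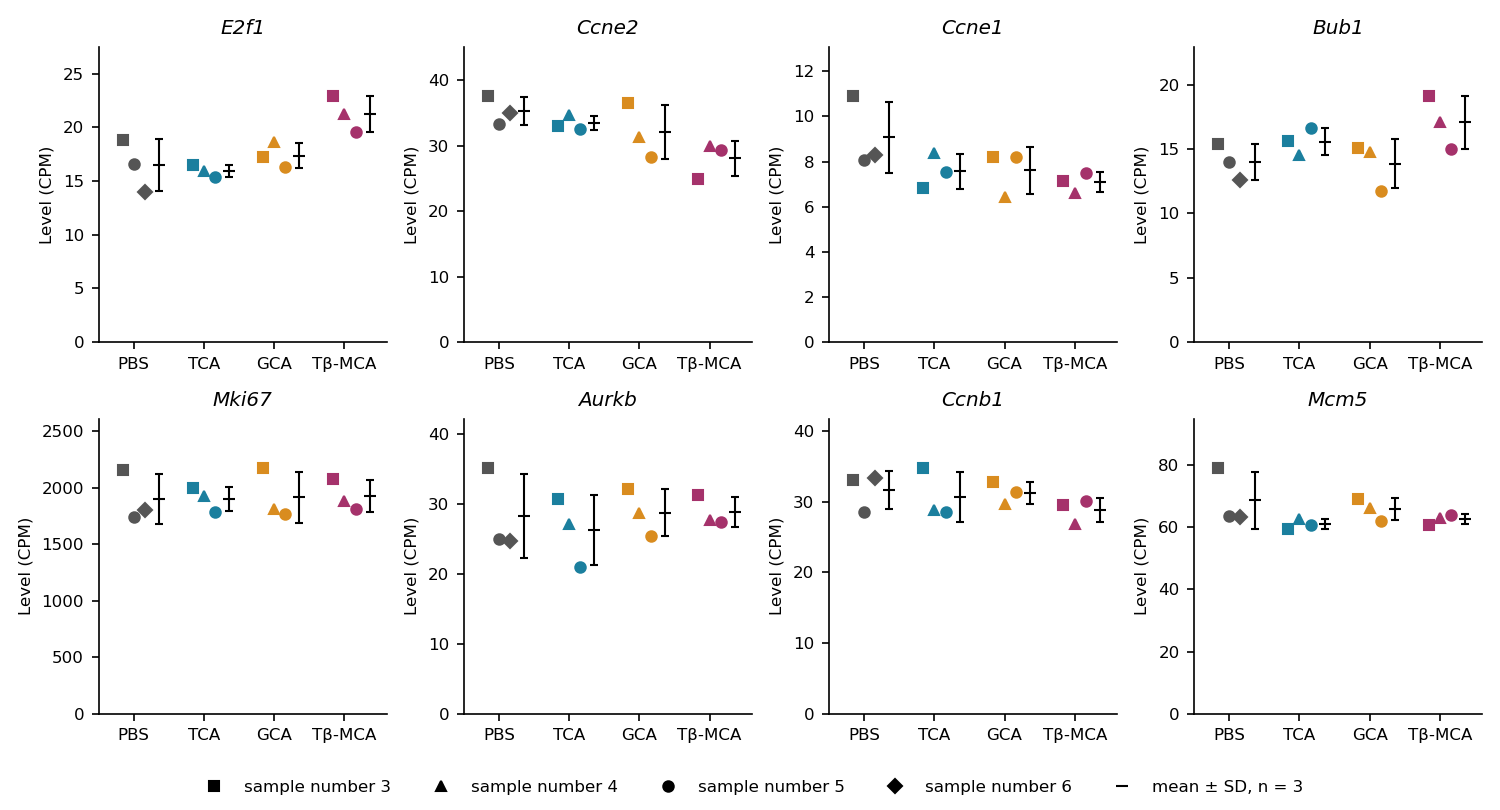
Level in CPM (vertical axes, from 0) of 8 cell cycle genes in each of the 12 samples, by treatment, with marker shapes for sample numbers and bars for mean ± SD (n = 3). E2f1 lies higher and Ccne2 and Ccne1 lower in each Tβ-MCA sample than in any PBS sample, whereas the treatments overlap with PBS for Mki67, Aurkb and Ccnb1, and Mcm5 lies lower with TCA than with PBS in each sample.

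TCA and GCA were each compared with PBS at 200 µM. No gene of the 40 was called with TCA, against 0% of all genes, and none at the fold cutoff, against 0.465%. With DESeq2 the count was also 0 for the 40. At an unadjusted p under 0.05 lay 3 of the 40 genes (7.5%), against 3.26% of all genes. The genes with the lowest p were of replication, and all lay lower with TCA. Fen1, the nuclease that trims Okazaki fragments, stood at 22.6, 20.4 and 20.1 CPM with PBS, 18, 18.7 and 18.2 with TCA, 21.3, 19 and 18.6 with GCA and 19.6, 20.4 and 19.8 with Tβ-MCA. Tk1, the thymidine kinase of the salvage pathway, stood at 28, 28.4 and 26.3 CPM with PBS, 25.2, 25.5 and 21.7 with TCA, 26.9, 23.6 and 26.8 with GCA and 24.6, 26.9 and 26 with Tβ-MCA. Neither group of TCA samples overlapped with PBS, and the log2 fold changes were -0.20 (SE 0.08) for Fen1 and -0.19 (SE 0.09) for Tk1. The annotation places Tmem258 across Fen1 and Afmid across Tk1, each on the other strand.

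The minichromosome maintenance (MCM) genes encode the ring of 6 subunits that unwinds DNA at the fork. Mcm2 stood at 44.2, 37.1 and 40 CPM with PBS, 36.4, 37.1 and 35.2 with TCA, 41, 35.7 and 37.7 with GCA and 38.9, 35.7 and 38.1 with Tβ-MCA. Mcm3 stood at 114, 95.5 and 96.8 CPM with PBS, 88.8, 93.3 and 93 with TCA, 104, 98.4 and 95.1 with GCA and 99.1, 99.7 and 104 with Tβ-MCA. Mcm5 stood at 79.1, 63.5 and 63.3 CPM with PBS, 59.6, 62.8 and 60.7 with TCA, 69, 66.2 and 62 with GCA and 60.8, 62.9 and 64.1 with Tβ-MCA. For these 3 subunits, each TCA sample lay below each PBS sample, by log2 differences of -0.16 for Mcm2, -0.16 for Mcm3 and -0.17 for Mcm5, all with an edgeR adjusted p of 1. In each, PBS replicate 3 was the highest of all samples, and without it the log2 differences were -0.09 for Mcm2, -0.07 for Mcm3 and -0.06 for Mcm5. With TCA, 5 of the 40 genes did not overlap with PBS (12.5%), against 9.67% of all genes. The other subunits overlapped, with log2 differences of 0.00 for Mcm4 and -0.09 for both Mcm6 and Mcm7. The median over the 40 genes was -0.018, and -0.09 over the 19 G1/S and replication genes, of which 4 lay above 0.

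GCA gave no call among the 40 genes, against 0% of all genes, and none at the fold cutoff, against 0.531%. With DESeq2 the count was again 0. At an unadjusted p under 0.05 lay 2 of the 40 genes (5%), against 3.53% of all genes. Ube2c, the ubiquitin-conjugating enzyme of the anaphase-promoting complex, stood at 61.2, 50.7 and 46.2 CPM with PBS, 66.5, 53.1 and 48.3 with TCA, 68.4, 59 and 64.4 with GCA and 62.1, 54.9 and 51.7 with Tβ-MCA. The log2 fold change was 0.28 (SE 0.12), with an edgeR adjusted p of 0.999. Cdt1, a licensing factor that loads the MCM ring, stood at 13.1, 9.77 and 10.9 CPM with PBS, 11.5, 11.4 and 11 with TCA, 13.7, 13.3 and 12.5 with GCA and 11.8, 12.6 and 12.8 with Tβ-MCA. Its log2 difference was 0.23, with the same adjusted p. None of the 40 genes had GCA and PBS samples without overlap, against 9.55% of all genes. The annotation places the long gene model Gm20388 across Cdt1 on the same strand. The median over the 40 genes was -0.003. The comparisons with PBS share the PBS samples, so their values for a gene are not independent. Ccne1, for which PBS replicate 3 was the highest sample, had log2 differences of -0.36, -0.26 and -0.25 with Tβ-MCA, TCA and GCA, and without that sample the differences of Ccne1 with Tβ-MCA and GCA were -0.21 and -0.10.

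GCA and TCA carry the same steroid and differ in the conjugated amino acid, glycine or taurine, and were tested against each other at their common dose in 1 comparison. No gene of the 40 was called, against 0% of all genes, none passed at an unadjusted p under 0.05, against 2.46%, and none at the fold cutoff, against 0.442%. DESeq2 also called none of the 40. The largest difference was that of Cdt1, at a log2 of 0.22 with GCA over TCA (95% interval -0.00 to 0.45) and an edgeR adjusted p of 1. Cdt1 and Mcm3 (0.11, interval -0.04 to 0.27) were the 2 genes without overlap between GCA and TCA, 5% against 8% of all genes. The intervals of all 40 genes lay between -0.42, the lower end for Bub1, and 0.47, the upper end for Aurkb, so that differences of up to about those sizes remain possible. Of the 40 genes, 29 lay higher with GCA, and the median difference was 0.015.

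**Figure D4:**
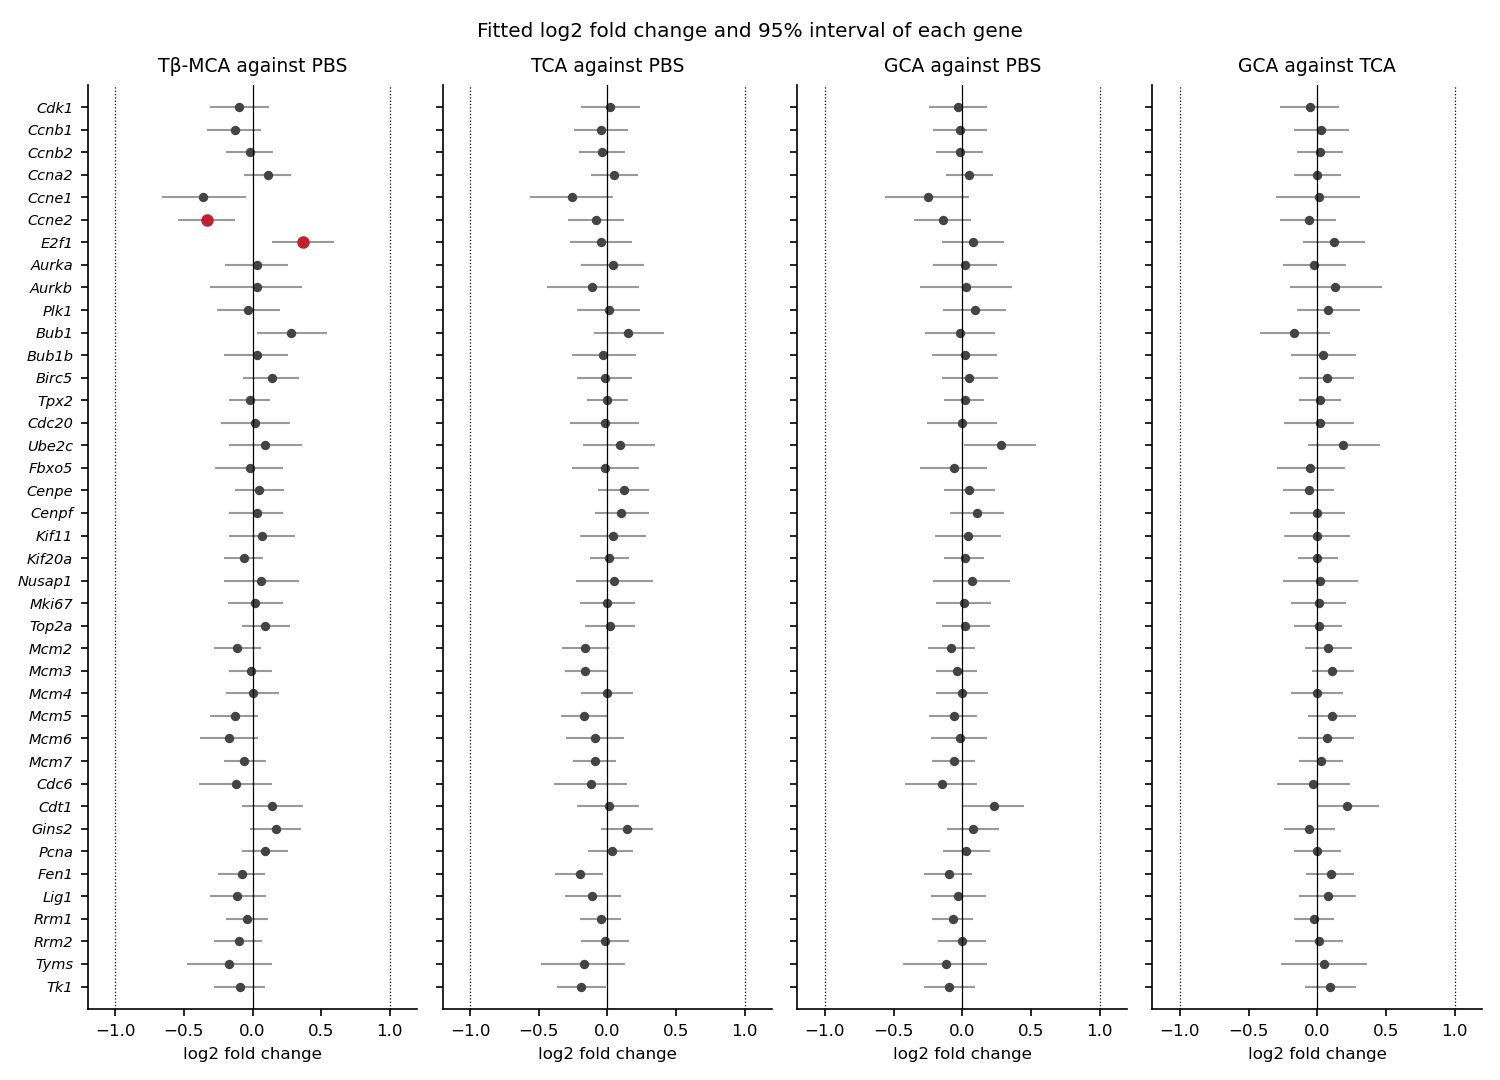
Fitted log2 fold change (horizontal axes) of each of the 40 genes (rows) in the 4 comparisons, with 95% intervals as lines, red points for an adjusted p under 0.05 and dotted lines at a 2-fold change. E2f1 at 0.37 and Ccne2 at -0.33 with Tβ-MCA are the only red points, and no interval reaches a dotted line.

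The mitotic genes are described here by role, beside their values. Mki67 stood at 2156, 1744 and 1805 CPM with PBS, 1998, 1925 and 1787 with TCA, 2177, 1813 and 1765 with GCA and 2082, 1884 and 1811 with Tβ-MCA. Top2a stood at 625, 528 and 559 CPM with PBS, 601, 576 and 556 with TCA, 651, 569 and 521 with GCA and 638, 616 and 575 with Tβ-MCA. In both, the sample numbered 3 was the highest of each group, and the groups overlapped. For Mki67, the log2 differences from PBS were 0.02 with Tβ-MCA, 0.00 with TCA and 0.01 with GCA, each with SE 0.09.

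CDK1 is the kinase that drives entry into mitosis, bound to cyclin A or cyclin B. Cdk1 stood at 55.8, 46.5 and 52.4 CPM with PBS, 54.4, 52.9 and 50 with TCA, 59, 50.1 and 42.4 with GCA and 49.6, 48.2 and 46.7 with Tβ-MCA. Ccnb1 stood at 33.1, 28.6 and 33.3 CPM with PBS, 34.8, 28.8 and 28.5 with TCA, 32.8, 29.7 and 31.4 with GCA and 29.5, 26.9 and 30.1 with Tβ-MCA. Ccnb2 stood at 48.1, 39.8 and 42.1 CPM with PBS, 43.7, 42 and 41.1 with TCA, 44.8, 44.5 and 39 with GCA and 42.1, 42.6 and 43.5 with Tβ-MCA. All treatments overlapped with PBS for these 3 genes, the log2 differences lying between -0.13, for Ccnb1 with Tβ-MCA, and 0.02, for Cdk1 with TCA. Ccna2, for cyclin A2, stood at 61.5, 56.1 and 54.6 CPM with PBS, 61.1, 58.2 and 59.3 with TCA, 63.6, 62.6 and 52.4 with GCA and 63.5, 64 and 58.5 with Tβ-MCA. It too overlapped between the groups, with 0.11 as its largest log2 difference from PBS, with Tβ-MCA.

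Aurkb and Birc5 encode the kinase and the survivin subunit of the chromosomal passenger complex, which corrects faulty spindle attachments. Aurkb stood at 35.1, 24.9 and 24.6 CPM with PBS, 30.7, 27.1 and 20.9 with TCA, 32.1, 28.6 and 25.4 with GCA and 31.2, 27.7 and 27.4 with Tβ-MCA. Birc5 stood at 72.6, 61.5 and 61 CPM with PBS, 68.4, 61.8 and 62.6 with TCA, 73.3, 68.4 and 61 with GCA and 77.7, 74 and 62.8 with Tβ-MCA. Plk1, a kinase of spindle assembly, stood at 43, 38.2 and 37.9 CPM with PBS, 45.7, 38.7 and 35.7 with TCA, 47.8, 37.6 and 41.3 with GCA and 43, 35.2 and 38.4 with Tβ-MCA. The sample numbered 3 was the highest of its group in all 4 groups for these 3 genes, and the treatments overlapped with PBS. The other genes of the group are the spindle pole kinase gene Aurka, Bub1b and Tpx2, with log2 differences from PBS between -0.03 and 0.04. Cdc20 and Fbxo5, the activator and the inhibitor of the anaphase-promoting complex, had log2 differences from PBS between -0.06 and 0.02. The kinetochore genes Cenpe and Cenpf, the spindle motor gene Kif11, the midzone motor gene Kif20a and the microtubule binding gene Nusap1 had log2 differences between -0.06 and 0.12. None of these was called in any comparison.

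Of the replication genes not yet given by sample, Cdc6 stood at 10.7, 8.47 and 9.47 CPM with PBS, 8.06, 10 and 8.2 with TCA, 9.52, 7.96 and 8.3 with GCA and 8.47, 8.45 and 9.39 with Tβ-MCA. Pcna, the sliding clamp of the fork, stood at 50.3, 46.7 and 50 CPM with PBS, 45.7, 51 and 53.1 with TCA, 49.9, 52.8 and 47.1 with GCA and 50.5, 56.6 and 49.3 with Tβ-MCA. Both overlapped between treatments and PBS. Rrm2, a subunit of ribonucleotide reductase, stood at 55.3, 44.8 and 47.2 CPM with PBS, 48.4, 49.4 and 47.6 with TCA, 53.3, 47.8 and 45.7 with GCA and 47, 45.3 and 45.2 with Tβ-MCA. Tyms stood at 12.9, 11 and 10.7 CPM with PBS, 8.78, 11.7 and 10.2 with TCA, 12.6, 8.59 and 10.6 with GCA and 10.2, 11.2 and 9.31 with Tβ-MCA. The groups overlapped again, with log2 differences from PBS between -0.10 and -0.00 for Rrm2 and between -0.17 and -0.12 for Tyms. Lig1 and Rrm1, the large subunit of ribonucleotide reductase, had log2 differences from PBS between -0.11 and -0.03.

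Within a group, the highest value of a mitotic gene was often that of the sample numbered 3. The mitotic sum was 4490, 3704 and 3861 CPM with PBS, 4310, 4086 and 3819 with TCA, 4630, 3923 and 3747 with GCA and 4384, 4048 and 3910 with Tβ-MCA, so that the sample numbered 3 was the highest of each group. The replication sum was 992.1, 848.8 and 870.5 CPM with PBS, 838.7, 868.9 and 840.2 with TCA, 934.2, 874.5 and 824.4 with GCA and 847, 874.8 and 876.8 with Tβ-MCA. It was the highest in the sample numbered 3 with PBS and GCA but not with TCA or Tβ-MCA. This pattern was noticed in these values and is a description with no test.

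Gene by gene, the sample numbered 3 was compared with the others of its group. It was the highest for 36 of the 40 genes with PBS, 23 with TCA, 35 with GCA and 19 with Tβ-MCA. These are 90, 57.5, 87.5 and 47.5% of the 40, against 38.1, 38.3, 35 and 34.5% of all genes tested. In all 4 groups at once, it was the highest for 13 of the 40 genes (32.5%), against 8.21% of all genes, and all 13 were mitotic. They were Cdk1, Aurka, Aurkb, Plk1, Bub1b, Birc5, Tpx2, Ube2c, Cenpf, Kif11, Nusap1, Mki67 and Top2a. The mean log2 difference over the groups was 0.32 for Aurkb, 0.31 for Nusap1 and 0.28 for Ube2c. Among the MCM genes, the mean log2 difference ranged from -0.08 for Mcm7, which was in no group the highest in the sample numbered 3, to 0.11 for Mcm2. Of these 13 genes, 11 had a promoter window, and 9 of the 11 held a CHR word, among them the printed windows of Mki67, Top2a and Cdk1, as did 3 of the 6 other mitotic genes with a window. The 13 genes were picked from these same values and the genes are few, so no conclusion is drawn from this split. Outside the 40 genes, the sums of the further pathway lists described below did not divide in this way. The summed level of the sample numbered 3 was 1.12, 1.07, 1.06 and 1.11 times the mean of the others with PBS, TCA, GCA and Tβ-MCA for 49 other replication genes, and 1.11, 1.08, 1.11 and 1.05 times for 49 other mitosis genes. These sums follow their highest genes. With PBS, Hmgb2 had a mean of 4168 CPM in a mitosis sum of 8223 CPM. Dnmt1 had 655 CPM in a replication sum of 1849 CPM. Whether the remaining genes of the lists divide was not tested. The sums of 18 other E2F, RB and DREAM genes and of 21 G1 cyclins, CDKs and CDK inhibitors were also the highest in the sample numbered 3 in all 4 groups, by at most 1.15 times. Markers of other stages and cells differed by sample number too. The precursor marker sum of the sample numbered 3 was 1.3, 1.24, 1.33 and 1.09 times the mean of the others with PBS, TCA, GCA and Tβ-MCA, and the eosinophil, basophil and mast cell sum 1.69, 1.61, 1.88 and 1.04 times. The precursor list ran both ways by gene. Ngp, its highest gene, stood at 18901, 14755 and 14422 CPM with PBS. Elane stood at 21.8, 27.8 and 25.9 CPM with PBS, 18, 26.3 and 23.3 with TCA and 2.72, 5.94 and 19.2 with Tβ-MCA. With GCA, Elane stood at 19, 17.4 and 26 CPM. Fcnb and Ms4a3 were also the lowest in the sample numbered 3 with PBS, TCA and Tβ-MCA. The part of other cells and stages in the pattern was not tested.

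**Figure D5:**
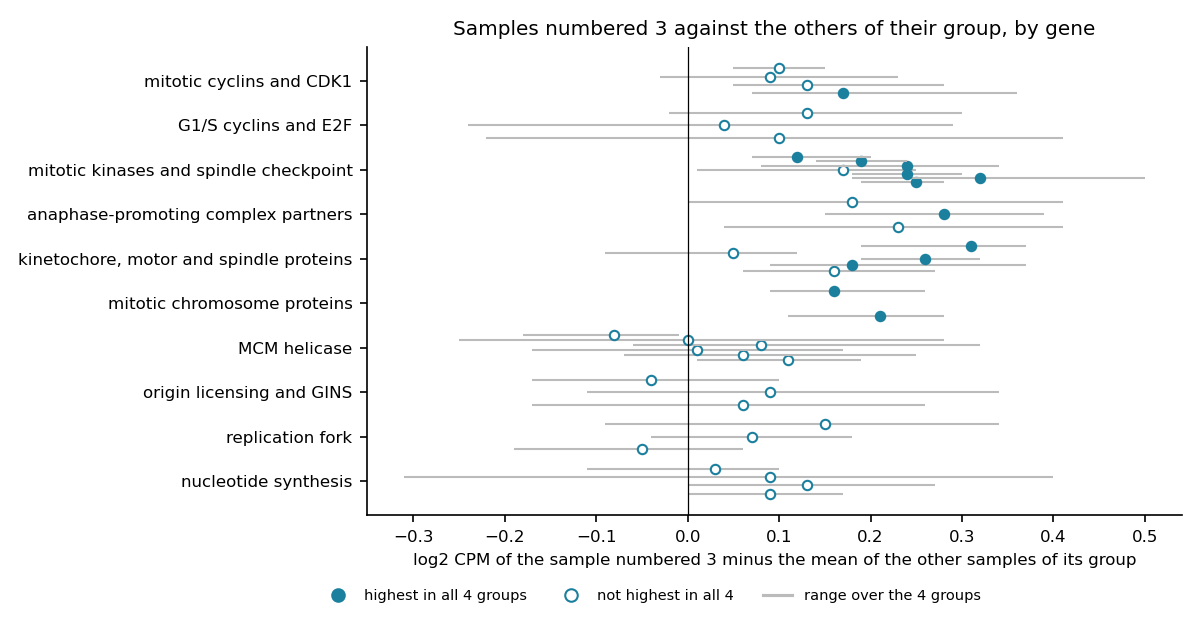
Difference in log2 CPM (horizontal axis) between the sample numbered 3 and the mean of the other samples of its group, 1 point per gene as the mean over the 4 groups, with lines for the range over groups and genes ordered by role. The filled points are the 13 genes highest in the sample numbered 3 in all 4 groups, all of mitotic roles, up to 0.32 for Aurkb.

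Further genes of the same pathways were followed by lists of 18 E2F, RB and DREAM genes, 21 G1 cyclins, CDKs and CDK inhibitors, 49 replication genes and 50 mitosis genes, 138 genes of which 135 were tested. With Tβ-MCA, 5 of the 135 rose and 0 fell at an adjusted p under 0.05 (3.7%), against the 7.62% of all genes, and with TCA or GCA none was called, nor between GCA and TCA. They were Rbl2, E2f6, Orc1, Pola2 and Dnmt1. Rbl2, which encodes the pocket protein p130 that keeps E2F targets silent in resting cells, stood at 60.8, 57.1 and 63.2 CPM with PBS and 77.1, 75.2 and 66.8 CPM with Tβ-MCA (log2 0.27, SE 0.08, edgeR adjusted p = 0.0416). E2f6, a repressor of the E2F family, stood at 8.46, 6.83 and 7.09 CPM with PBS and 11.8, 9.91 and 8.81 CPM with Tβ-MCA (log2 0.45, SE 0.13). In both, all samples with Tβ-MCA lay above all with PBS, and Tβ-MCA replicate 5 was the lowest of its group.

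Among the replication genes, Orc1, the large subunit of the origin recognition complex, stood at 2.58, 1.71 and 2.51 CPM with PBS and 4.88, 4.1 and 2.84 CPM with Tβ-MCA (log2 0.79, SE 0.23). Pola2, the accessory subunit of DNA polymerase alpha, stood at 17.9, 17.3 and 18.4 CPM with PBS and 28.5, 25.7 and 20.3 CPM with Tβ-MCA (log2 0.48, SE 0.11). Dnmt1, which copies DNA methylation behind the fork, stood at 713, 628 and 624 CPM with PBS and 956, 878 and 722 CPM with Tβ-MCA (log2 0.38, SE 0.11). The edgeR adjusted p-values were 0.0484 for Orc1, 0.0251 for Pola2 and 0.0428 for Dnmt1, and Tβ-MCA replicate 5 was again the nearest to PBS in all 3. Without Tβ-MCA replicate 5, 12 of the 135 genes were called. The share over all genes in that fit is not given here, so this count is not read as a result about the lists. Without any 1 of the other 5 samples of this contrast none of the 135 was called. Of those fits, only that without PBS replicate 6 called any gene of the whole table, 168 of 17124. Of the 49 mitosis genes tested, none was called with Tβ-MCA, and their median log2 fold change was 0.09.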

How the data were processed

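Ly6G+ bone marrow neutrophils were profiled by stranded mRNA sequencing. Per the labels, reads were trimmed with Trimmomatic 0.36, aligned with STAR 2.5.3a to GRCm38 (mm10) and counted with featureCounts of Subread 1.5.1. The authors deposited raw counts per gene with gene length, and RPKM, which was recomputed from the counts to within a relative difference of 1.3e-06. In every sample, at least 2.93 times as many genes had 2 counts as had 1, so counts may not be independent fragments. The kit is stranded, but the strand setting of the counting is not given in the sources used here. Counts were fitted with edgeR 4.0.16 in R 4.3.3 (TMM scaling, filterByExpr by group, robust quasi-likelihood test, all 12 samples in 1 fit, 8 residual degrees of freedom), with Benjamini-Hochberg adjustment over 16761 genes and calls at an adjusted p under 0.05. Standard errors and 95% intervals follow from the fold change and its F statistic. The step was tested on simulated data. Depth was 32757389 to 41375925 counts per sample, and no replicates were alike enough to be 1 library (lowest chi-square per degree of freedom 4.79). RPKM was used only to compare levels between genes. Positions of 38 of the 40 genes equal those of GENCODE vM21. Promoter windows come from RefSeq.

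The genes and lists were chosen with earlier results of these data known. Named by sample are 21 genes picked by role, every gene called, and the 5 with the lowest p in each comparison. Of other lists, the genes called were named, and some that were not called. S100a9, Hmgb2 and Ngp were named for their level, and Elane, Fcnb and Ms4a3 for their values in the samples numbered 3. Alternatives were total library size, upper-quartile scaling, no filter, at least 10 counts in every sample, DESeq2 1.42.0, a replicate block, only the 2 groups compared, each sample left out and, chosen after seeing the data, leaving out the 4 samples numbered 3.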

Additional observations from a re-analysis of the deposited data

How the results depend on the processing

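The only count of the 40 genes that changed was that with Tβ-MCA against PBS, 2 with all samples. It was 1 with total library sizes (E2f1), 1 with upper-quartile scaling (Ccne2), 0 with only the 2 groups compared and 0 without the 4 samples numbered 3. Leaving out 1 sample gave 0 for PBS replicates 3, 5 and 6 and for Tβ-MCA replicates 3 and 4, and 2 for Tβ-MCA replicate 5. The causes of these changes were not tested. Without a filter, with at least 10 counts in every sample and with DESeq2 it stayed at 2. Over the 14 alternatives, E2f1 kept its direction and had adjusted p-values of 0.0182 to 0.19, and Ccne2 of 0.018 to 0.245. The counts with TCA and GCA, that between them and all counts at the fold cutoff stayed at 0 in each alternative run. The 138 further pathway genes had 5 called, 10 without a filter, 8 with DESeq2 and 0 with only the 2 groups compared or without the 4 samples numbered 3. Over all genes, 1408 of 16761 were called with total library sizes and 1263 of 16761 with upper-quartile scaling. With at least 10 counts in every sample 1342 of 14409 were called, without a filter 2406 of 29737, and with only the 2 groups compared 0. The counts over all genes with DESeq2 and without the samples numbered 3 are not given here. With total library sizes, the sample numbered 3 was the highest for 35, 19, 30 and 19 of the 40 genes with PBS, TCA, GCA and Tβ-MCA.

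With the sample number as a replicate block, 1 of the 40 genes was called with Tβ-MCA (Ccne2), and the block changed no other count of the 40. E2f1 was at 0.26 without PBS replicate 6, and at 0.24 (edgeR adjusted p = 0.107) with the block. Of the 135 further pathway genes tested, 5 were again called, but not the same 5: E2f6 (0.39, edgeR adjusted p = 0.0712) and Orc1 (0.80, edgeR adjusted p = 0.0597) were not among them. Samples with the same number had a mean correlation of 0.19 in their deviations from the group means over 15 pairs (0.06 to 0.33), against -0.07 over 39 other pairs, and 10 of the 11 samples with such a partner correlated best with it. This is a hint from the data and not from the design, so the block was not used. Depth did not limit these genes, whose lowest count was 220, whereas 3 samples per group limit the precision of every difference.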
